A study of Mus musculus with 9 samples.

Results

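The genes described here are the 5 subunits of the transcription factor NF-kappaB (Nfkb1, Nfkb2, Rel, Rela and Relb) and 5 further genes. Of the latter, Nfkbia, Nfkbib, Nfkbie and Tnfaip3 encode products that restrain it, and Nfkbiz a nuclear protein of the IkappaB inhibitor family. These members were chosen by symbol, and all 10 were found among the 55487 gene IDs of the deposited tables. All 10 also passed the filter on low counts, with reads in every library. RNA was sequenced from monocytes sorted from the spleens of untreated C57BL/6 mice in 3 groups of 3 libraries. Wild-type (WT) mice gave both subsets, the classical Ly6Chi and the nonclassical Ly6Clo monocytes. Mice with the genotype Cebpa +37-/-, which lack the +37 element of the Cebpa gene on both alleles and are called KO here, gave Ly6Clo monocytes. The gene product, C/EBP-alpha, is a myeloid transcription factor. The sources used here do not give the age of the mice, how many animals made a library, or in which cells the deletion is active. Nor do they state whether each replicate is its own animal, so the p-values measure the spread between libraries only, and that spread may be technical.

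NF-kappaB proteins bind DNA as pairs of Rel subunits. Nfkb1 and Nfkb2 encode precursors that are processed to the DNA-binding subunits without an activation domain, while Rela, Rel and Relb encode the subunits that activate transcription. The inhibitors of the IkappaB family (Nfkbia, Nfkbib and Nfkbie) hold these pairs in the cytoplasm until a kinase complex, IKK, marks them for degradation. Nfkbiz encodes a nuclear family member that works with the subunits on chosen promoters, and Tnfaip3 encodes a ubiquitin-editing enzyme that shuts off signals upstream of IKK. Several of these genes are themselves NF-kappaB targets, so that the pathway limits its own activity. In monocytes it is known for driving cytokine, chemokine and survival genes after microbial or cytokine signals.

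Promoter sequences are shown because several of these genes are known targets of the factor they form or restrain. RefSeq promoter sequences (build GRCm38.p6, 250 bases before to 50 after each gene start) were at hand for 7 of the 10 genes, in 10 promoters. The kappaB consensus motif, of 10 bases, was searched on both strands, where one stretch can match on both strands or in overlapping positions. It was found in 6 of these 10 promoters, those of 4 genes (Nfkbia, Tnfaip3, Rel and Nfkb2), and in 5.8% of all 32851 promoters of the same length. Of the 6, 2 are promoters of Nfkb2 that overlap and share 1 matched stretch, which is counted in both. The promoters of Nfkbib, Nfkbie and Rela held no match in this window. A match is a description of the sequence and not a measured binding site. The stretches below run 5′ to 3′ on the strand of the gene, with the matched bases in capitals.
Nfkbia, chr12:55492648-55492747, minus strand: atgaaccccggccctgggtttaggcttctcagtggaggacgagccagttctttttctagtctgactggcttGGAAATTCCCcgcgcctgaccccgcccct
Tnfaip3, chr10:19015411-19015510, minus strand: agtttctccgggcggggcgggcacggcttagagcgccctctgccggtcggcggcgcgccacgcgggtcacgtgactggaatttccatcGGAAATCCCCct
Rel, chr11:23770971-23771070, minus strand: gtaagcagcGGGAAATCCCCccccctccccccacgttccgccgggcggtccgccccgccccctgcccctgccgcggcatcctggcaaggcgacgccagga
Nfkb2, chr19:46304688-46304717, plus strand: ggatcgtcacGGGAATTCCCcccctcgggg
Nfkb2, chr19:46305695-46305724, plus strand: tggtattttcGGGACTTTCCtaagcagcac
The first 3 lie just upstream of the RefSeq start and outside annotated exons. The 2 stretches of Nfkb2, a gene with several starts, lie in annotated exons, and whether these are exons of Nfkb2 was not checked. They are limited to the bases around a match, the first of which reads the same on both strands.

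Library totals ran from 48141590 to 173703361 counts, and replicate 2 of WT Ly6Clo and of KO Ly6Clo were the deepest (173703361 and 149773219). Levels are CPM, read counts scaled to TMM-adjusted library size, unless TPM is named, and group values are mean ± SD with n = 3 libraries. Cebpa was at 4.04, 2.89 and 2.74 CPM in KO Ly6Clo, 18.2, 17.7 and 19.2 in WT Ly6Clo libraries and 31.5, 51.3 and 51.6 in WT Ly6Chi, in the order of the labels. The 8 Ly6Chi monocyte markers summed to 8219 to 11102 CPM in WT Ly6Chi and to 134 to 275 in the 6 Ly6Clo libraries. All 6 shared monocyte markers had counts in every library. WT Ly6Chi replicate 3 stood apart in its sex-linked genes, with 30 CPM of Xist against at most 0.0417 in the other 8 libraries and no count of the Y-linked Ddx3y, Eif2s3y and Kdm5d. Calls lost without this library are given as such below, and calls reached only with the replicate number as a block were refitted without it, an alternative chosen after seeing the data.

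Per length, Nfkbia was the most abundant member in every group. Its level was 760.1, 1082 and 1121 TPM in replicates 1 to 3 of WT Ly6Chi, 1289.9, 2395 and 1429.7 in those of WT Ly6Clo and 866, 1385 and 1255 in those of KO Ly6Clo, above the highest library of every other member of the same group. Rela, at 195 ± 43.5, 278 ± 29.5 and 272 ± 76.1 TPM in the same order, was the most abundant subunit in all 9 libraries and made up 33.9 to 40.3% of the summed subunit TPM. Below these, neighbours in the order mostly overlapped. In WT Ly6Chi the order was Nfkbia, Rela, Nfkb2, Nfkbib, Tnfaip3, Nfkbie, Nfkbiz, Rel, Relb and Nfkb1, and the ranges of neighbours were apart only between Nfkbia and Rela. In WT Ly6Clo it was Nfkbia, Nfkbiz, Rela, Nfkb2, Nfkbib, Tnfaip3, Rel, Nfkbie, Nfkb1 and Relb, apart also between Rela and Nfkb2 and between Nfkb1 and Relb. In KO Ly6Clo it was Nfkbia, Rela, Nfkbiz, Nfkbib, Nfkb2, Tnfaip3, Nfkbie, Nfkb1, Rel and Relb, apart again only between Nfkbia and Rela. Nfkb1, the gene with the longest counted exons of the 10 (12061 bases), was therefore high in CPM and low in TPM.

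**Figure D1:**
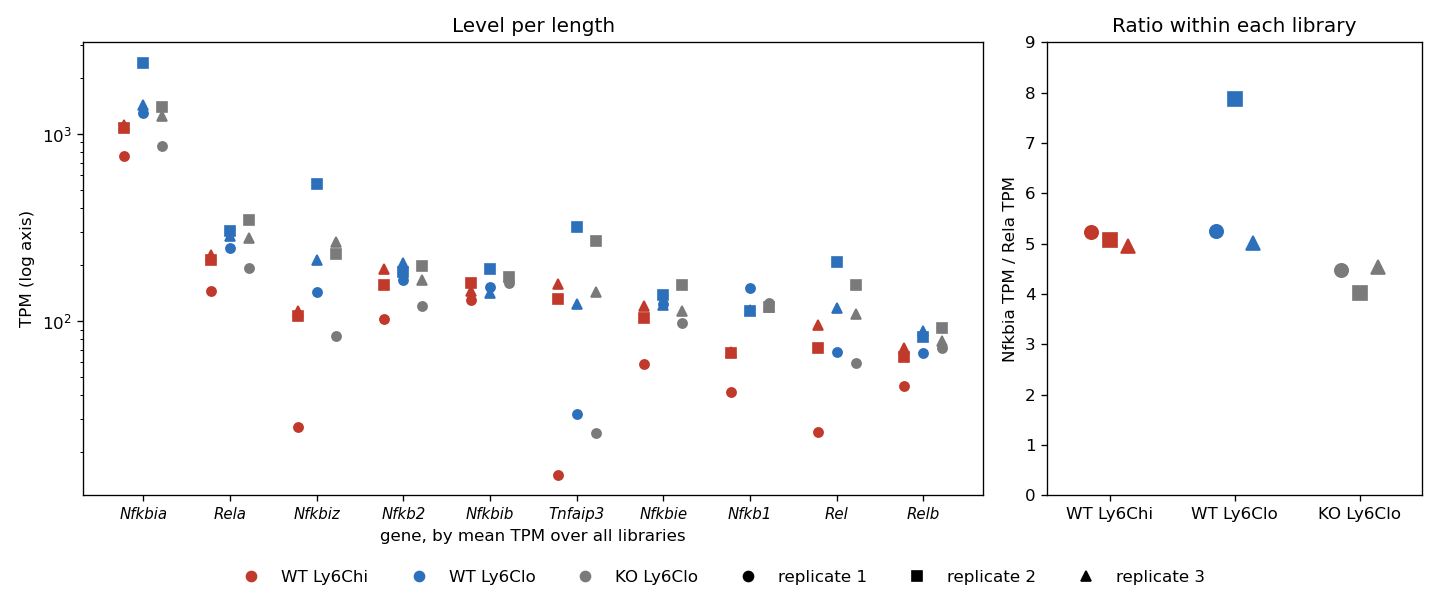
Left, deposited TPM of the 10 members (log axis) in each library, coloured by group and shaped by replicate number. Right, the TPM of Nfkbia divided by that of Rela in each library, at 4.95 to 5.24 in WT Ly6Chi, 5.02 to 7.88 in WT Ly6Clo and 4.02 to 4.53 in KO Ly6Clo.

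WT Ly6Clo and WT Ly6Chi monocytes differed in 1 of the 10 members by the main test, the subunit gene Nfkb1, which was higher in Ly6Clo. Of all 18341 genes tested, 1.88% were called higher in this comparison and 1.62% lower. All 10 members had a positive log2 fold change, with a median of 0.59 against 0.00 over all genes tested, and 49.8% of all genes were positive. The levels of members rise and fall together across libraries, so they are not independent. In bulk RNA, fewer cells of a type and less RNA per cell cannot be told apart.

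Nfkb1 (ENSMUSG00000028163, chromosome 3, 135584655 to 135691547 in GRCm38, minus strand), which encodes a DNA-binding subunit and its precursor, was at 163, 271 and 270.2 CPM in replicates 1 to 3 of WT Ly6Chi, 569, 474 and 433 in those of WT Ly6Clo and 457, 444 and 422 in those of KO Ly6Clo. The 6 Ly6Clo libraries of either genotype all lay above the 3 Ly6Chi libraries. WT Ly6Clo held 492 ± 70 CPM against 235 ± 61.9 in WT Ly6Chi (log2 fold change 1.07 with an SE of 0.21 and an edgeR adjusted p of 0.031), with a 95% interval of 0.58 to 1.55. The same-numbered pairs gave log2 differences of 1.80, 0.81 and 0.68. The 10 Ly6Clo monocyte markers, all with counts in every library, summed to 1371, 5931 and 6348 CPM in replicates 1 to 3 of WT Ly6Chi, 11389.8, 20981 and 14936 in those of WT Ly6Clo and 7825, 14682 and 13205 in those of KO Ly6Clo. The sum includes Nr4a1, which is also among the immediate early genes below. Nr4a1 was at 322 to 2785 CPM in WT Ly6Chi, 2458 to 11134 in WT Ly6Clo and 1638 to 6262 in KO Ly6Clo. WT Ly6Chi replicate 1 was thus the lowest of the 9 libraries both in Nfkb1 and in this sum, and the part of the one in the other was not tested. The share of Nfkb1 in the summed subunit TPM was 10.5 to 11.9% in WT Ly6Chi and 12.7 to 21.9% in the 6 Ly6Clo libraries. DESeq2 (adjusted p = 0.0013) and limma-voom (0.018) also called Nfkb1 higher in WT Ly6Clo than in WT Ly6Chi. The main edgeR call held with the replicate block (0.046) and in the 2 groups alone (0.048), and in 10 of 17 alternatives in all. This edgeR call did not hold without replicate 2 of WT Ly6Chi (adjusted p = 0.071) or 3 (0.064), without replicate 1 of WT Ly6Clo (0.11), 2 (0.083) or 3 (0.070), or KO replicate 2 (0.051), and when the 2 runs of consecutive library numbers entered the fit (0.051). It did not hold either with the block and without WT Ly6Chi replicate 3 (log2 fold change 1.28, edgeR adjusted p = 0.065). Within those runs, the log2 difference was 1.67 in the first (2 WT Ly6Clo libraries against 1 Ly6Chi) and 0.68 in the second (1 against 2).

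Nfkbiz (ENSMUSG00000035356, chromosome 16, 55811375 to 55838899, minus strand), the nuclear IkappaB protein, had the largest fold change of the members and the call depended on the fit. It was at 44.2, 176 and 186 CPM in WT Ly6Chi, 224, 946 and 335 among WT Ly6Clo libraries and 126, 355 and 393 among KO Ly6Clo libraries. The WT groups did not overlap, but WT Ly6Clo replicate 2 was 4.22 times replicate 1, and the main test did not call the difference (log2 fold change 1.89 with an SE of 0.70 and an edgeR adjusted p of 0.20). With the replicate number as a block, edgeR called it higher (log2 fold change 1.93, SE 0.34, edgeR adjusted p = 0.029), and 2 of the 10 members were then called against 2.91% of all genes called higher. Without WT Ly6Chi replicate 3 this blocked call was lost (log2 fold change 2.20, edgeR adjusted p = 0.0504), and without the block the log2 fold change of Nfkbiz was 1.04 without WT Ly6Clo replicate 2. All 3 same-numbered pairs were higher, by 2.34, 2.43 and 0.85 on the log2 scale.

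The other 4 subunits were not called by that test or with the block. Rel (chromosome 11, 23736847 to 23770970), the c-Rel subunit of lymphoid and myeloid cells, was at 61.2, 178 and 234 CPM in WT Ly6Chi, 160.2, 539 and 275 among WT Ly6Clo libraries and 134, 364 and 239.5 among KO Ly6Clo libraries, and replicate 1 was the lowest library of each group (log2 fold change 1.04 with an SE of 0.58 and an edgeR adjusted p of 0.40). The log2 fold change of Rel was 0.46 without WT Ly6Clo replicate 2 and 0.67 without WT Ly6Chi replicate 1. With the block and without WT Ly6Chi replicate 3, Rel was the 1 member called higher (log2 fold change 1.48, edgeR adjusted p = 0.019, where 1.37% of genes were called higher). Rela (chromosome 19, 5637483 to 5648130), which carries the main activation domain of the pathway, was at 144, 217 and 229 CPM in WT Ly6Chi, 238, 326 and 274 among WT Ly6Clo libraries and 180.0, 329.8 and 252 among KO Ly6Clo libraries. The lowest WT Ly6Clo library of Rela lay just above the highest WT Ly6Chi library (log2 fold change 0.50 with an SE of 0.26 and an edgeR adjusted p of 0.35). Relb (chromosome 7, 19606217 to 19629438), the subunit of the non-canonical branch, was at 56.4, 82.4 and 92.2 CPM in WT Ly6Chi, 82.1, 111 and 108 among WT Ly6Clo libraries and 84.7, 111 and 89.7 among KO Ly6Clo libraries, and the groups overlapped. Nfkb2 (chromosome 19, 46304320 to 46312385), whose product pairs with that of Relb, was at 153, 236 and 286 CPM in WT Ly6Chi, 238, 291 and 292 among WT Ly6Clo libraries and 168, 281 and 225 among KO Ly6Clo libraries, again with overlap. Exons of Nfkb2 share 531 bases with those of the antisense gene AC114539.1 and 299 with Psd on the other strand, so part of its reads are less certain. The log2 fold changes were 0.38 (95% interval -0.12 to 0.88) for Relb and 0.28 (-0.31 to 0.88) for Nfkb2.

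Among the cytoplasmic inhibitors, Nfkbia (ENSMUSG00000021025, chromosome 12, 55489410 to 55492647, minus strand), the main inhibitor and a classical target of the factor it holds back, was at 395, 577 and 595 CPM in WT Ly6Chi, 653, 1346 and 721 among WT Ly6Clo libraries and 423, 694 and 598 among KO Ly6Clo libraries. Every WT Ly6Clo library lay above every WT Ly6Chi library, and replicate 2 of WT Ly6Clo stood highest of all 9 (log2 fold change 0.80 with an SE of 0.31 and an edgeR adjusted p of 0.22). Without that library the log2 fold change was 0.39. Nfkbie (chromosome 17, 45555703 to 45563169), an inhibitor that favours pairs with c-Rel, was at 57.9, 105 and 121 CPM in WT Ly6Chi, 118, 147 and 117 among WT Ly6Clo libraries and 89.8, 147 and 102 among KO Ly6Clo libraries, with overlap (log2 fold change 0.43 with an SE of 0.29 and an edgeR adjusted p of 0.49). Nfkbib (chromosome 7, 28758251 to 28767512), which encodes a slower-responding inhibitor, had the smallest fold change of the 10 and was at 90.6, 115 and 103 CPM in WT Ly6Chi, 104, 144 and 96.4 among WT Ly6Clo libraries and 105, 116 and 109.8 among KO Ly6Clo libraries (log2 fold change 0.16 with an SE of 0.18 and an edgeR adjusted p of 0.72). Its exons share 314 bases with Ccer2, which had at most 2 counts in a library, and 42 with Sirt2, both on the other strand. Of the 10 members, 4 had WT groups that did not overlap (Nfkb1, Rela, Nfkbia and Nfkbiz), all higher in Ly6Clo, against 13.6% of all genes.

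Tnfaip3 (ENSMUSG00000019850, chromosome 10, 19000910 to 19015657, minus strand) varied most within groups. It was at 35.2, 313 and 373 CPM in replicates 1 to 3 of WT Ly6Chi, 72.3, 802 and 279.9 in those of WT Ly6Clo and 55.6, 599 and 304 in those of KO Ly6Clo. Replicate 1 was by far the lowest library of each group and the groups overlapped (log2 fold change 0.68 with an SE of 1.07 and an edgeR adjusted p of 0.80, 95% interval -1.74 to 3.09). Its log2 fold change became -0.45 without WT Ly6Clo replicate 2. The block gave a log2 fold change of 0.64 with an SE of 0.33 (edgeR adjusted p = 0.32).

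**Figure D2:**
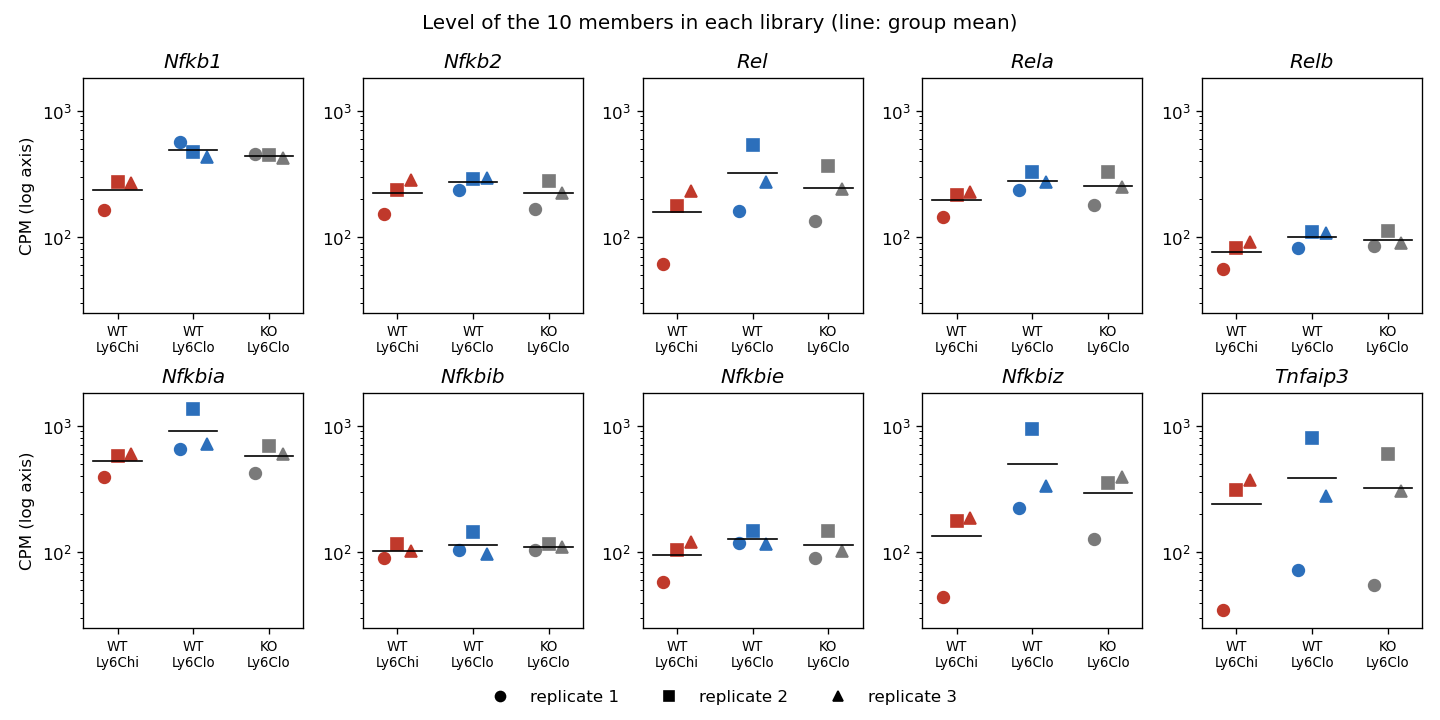
CPM of the 10 members (log axis) in each library of the 3 groups, shaped by replicate number, with a line at the group mean. Nfkb1 in the 6 Ly6Clo libraries (422 to 569 CPM) lies above the 3 WT Ly6Chi libraries, while Tnfaip3, Nfkbiz and Rel are lowest in replicate 1 of each group.

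Deletion of the +37 element of Cebpa was compared within Ly6Clo monocytes, and 0 of the 10 members passed the test. By edgeR 0.0709% of all 18341 genes were called in either direction. None of the 10 had an unadjusted edgeR p under 0.05, against 6.16% of all genes. The KO and WT Ly6Clo libraries overlapped in all 10, while 10.9% of all genes did not overlap. DESeq2 and limma-voom called 0 members too, against 1.76% and 0.0872% of genes. All 10 had a negative log2 fold change, with a median of -0.22, where 47.3% of all genes were negative and their median was 0.03. Without WT Ly6Clo replicate 2, the highest WT Ly6Clo library for 8 of the 10, the estimates of Rel (0.20), Rela (0.01), Relb (0.02), Nfkbib (0.15), Nfkbiz (0.08) and Tnfaip3 (0.88) were positive.

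Nfkbia came nearest to a difference, with WT Ly6Clo at 907 ± 382 CPM and KO Ly6Clo at 572 ± 137 (log2 fold change -0.67 with an SE of 0.31 and an edgeR adjusted p of 0.86, 95% interval -1.37 to 0.04). Without WT Ly6Clo replicate 2 its log2 fold change was -0.25. It was lower in KO in 3 of 3 same-numbered pairs, by -0.63, -0.95 and -0.27 on the log2 scale, as were Nfkb1, Nfkb2 and Rel, against 15% of all genes. With the replicate block its unadjusted p was 0.011, and the adjusted edgeR p was 0.53, where 3.87% of all genes were lower at an unadjusted p under 0.05. Nfkbia has more transcript than Rela, the subunit it binds, in every library. The ratio of their TPM in replicates 1 to 3 was 4.49, 4.02 and 4.53 in KO Ly6Clo, 5.25, 7.88 and 5.02 in WT Ly6Clo libraries and 5.24, 5.08 and 4.95 in WT Ly6Chi. The 3 KO libraries were thus the 3 lowest of the 9, a pattern given as a description. Of all genes tested, 2.72% had a ratio to Rela that was lower in every KO than in every WT Ly6Clo library.

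For the subunits the 95% intervals between KO and WT Ly6Clo, from the fit without the block, ran from -0.64 to 0.32 around a log2 fold change of -0.16 for Nfkb1, and those of the others were Relb (-0.07, -0.58 to 0.43), Rela (-0.14, -0.73 to 0.45), Nfkb2 (-0.29, -0.88 to 0.31) and Rel (-0.40, -1.70 to 0.90). Of the inhibitors, the interval of Nfkbib was -0.48 to 0.36 (log2 fold change -0.06) and that of Nfkbie -0.82 to 0.49 (-0.17). Those of Nfkbiz (-0.78, -2.33 to 0.76) and Tnfaip3 (-0.27, -2.67 to 2.14) were the widest of the 10. With the block, Tnfaip3 had a log2 fold change of -0.26 with an SE of 0.32 (edgeR adjusted p = 0.95). A p that missed the threshold here does not show that KO and WT were alike.

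KO Ly6Clo monocytes were also set against WT Ly6Chi, a comparison that shares its WT Ly6Chi libraries with the one between the WT subsets. Nfkb1 was again the 1 member called, higher in KO Ly6Clo at 441 ± 18 against 235 ± 61.9 CPM (log2 fold change 0.91 with an SE of 0.21 and an edgeR adjusted p of 0.048, 95% interval 0.43 to 1.39), where 2.06% of all genes were called higher. By edgeR it was lost whichever of the 9 libraries was left out (adjusted p from 0.067 to 0.13) and held in 3 of 17 alternatives. With the block and without WT Ly6Chi replicate 3, Rel was called higher in its place (log2 fold change 1.13, edgeR adjusted p = 0.028, where 1.54% of genes were), and Nfkb1 was not (1.11, adjusted p = 0.088). Pairing by replicate number is not shown for these groups. Nfkb1 was also the 1 member whose libraries did not overlap, against 11.3% of all genes higher without overlap. Within the 2 runs of library numbers the log2 differences were 1.46 and 0.64. Nfkbiz had a log2 fold change of 1.11 (SE 0.69) and was not called, and the other 8 lay between 0.00 and 0.64.

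**Figure D3:**
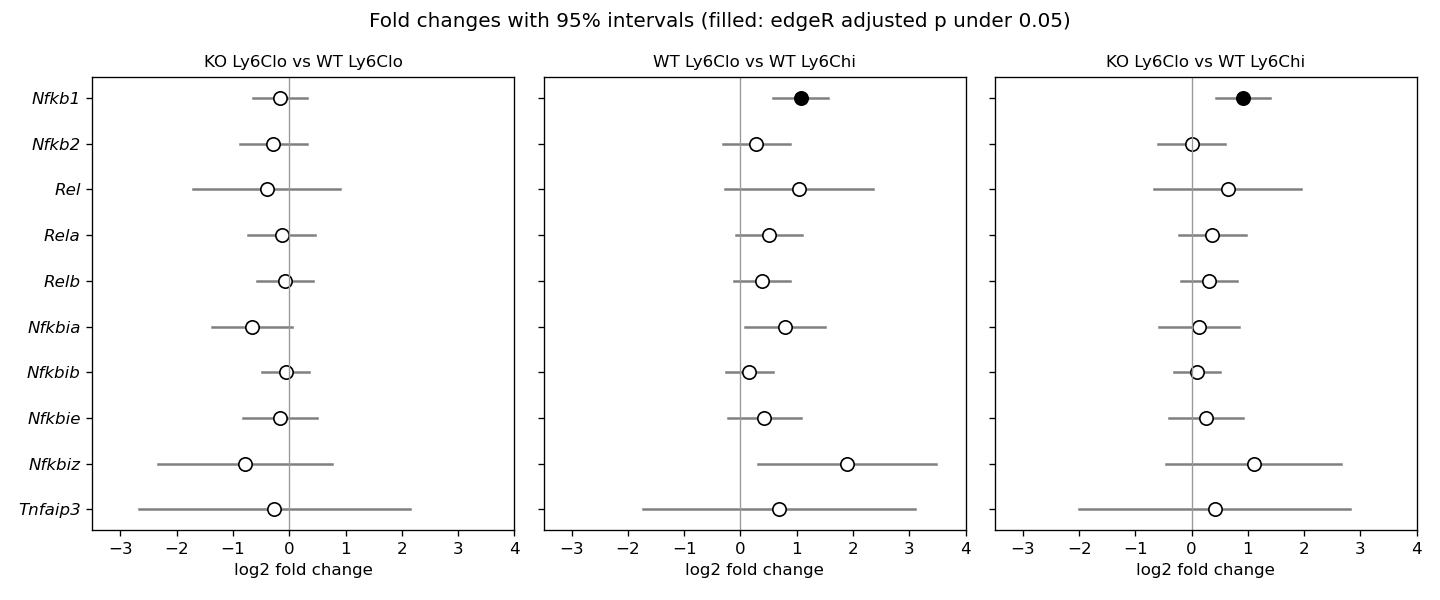
Log2 fold change of each member (x axis) in the 3 comparisons, with 95% intervals from the edgeR fit. The 2 filled points, Nfkb1 in both comparisons with WT Ly6Chi (1.07 and 0.91), passed the test, and the intervals of Tnfaip3 and Nfkbiz are the widest.

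Within groups, the members differed in how far they varied. The ratio of the highest to the lowest library, in the order WT Ly6Chi, WT Ly6Clo and KO Ly6Clo, was 10.6, 11.1 and 10.8 for Tnfaip3, 4.21, 4.22 and 3.11 for Nfkbiz and 3.82, 3.37 and 2.71 for Rel. For Nfkbib it was 1.27, 1.49 and 1.1, and for Nfkb1 1.66, 1.32 and 1.08. Nfkb2, Rela, Relb, Nfkbia and Nfkbie ran from 1.23 to 2.09 over the 3 groups. Over all genes with a mean of at least 50 CPM, the median ratio was 1.38, 1.32 and 1.44. The spread followed the replicate number. Replicate 1 was the lowest library in 26 of 30 combinations of member and group, against 54.1%, 37.4% and 45.1% of those genes in the 3 groups. The exceptions were Nfkbib and Nfkbie in WT Ly6Clo, lowest in replicate 3, and Nfkb1 in both Ly6Clo groups, where replicate 1 was the highest and replicate 3 the lowest.

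Immediate early genes, which are switched on within minutes of stress or stimulation, also had their lowest sum in replicate 1 of every group. The 18 on the list (Fos, Jun, Egr and Nr4a genes among them) summed to 2586, 22474 and 23391 CPM in replicates 1 to 3 of WT Ly6Chi, 6181, 41716 and 21561 in those of WT Ly6Clo and 4373, 21881 and 19933 in those of KO Ly6Clo. Single genes differed from the sum: Egr2 was at 2.49, 5.11 and 1.14 CPM in WT Ly6Chi, lowest in replicate 3, and Egr3 was near 0 in most libraries. Fos, a subunit of the AP-1 factor, was at 328, 4352 and 4968 CPM in WT Ly6Chi, 136, 3820.3 and 2248 among WT Ly6Clo libraries and 18.9, 1917 and 1776 among KO Ly6Clo libraries. Over the 9 libraries the log2 level of Tnfaip3 followed this sum most closely (Pearson r = 0.98). Next came Rel (0.903), Nfkb2 (0.886), Rela (0.838), Nfkbiz (0.837), Relb (0.817) and Nfkbie (0.812). Nfkbia (0.778) and Nfkbib (0.677) followed it less closely, and Nfkb1 least (0.318). These values are descriptions, since the 9 points share groups, replicate numbers and depth. Replicate 1 of all 3 groups and replicate 2 of both Ly6Clo groups belong to the first run of library numbers, so the low and the highest Ly6Clo libraries share a run. The 6 heat shock genes had the same order of sums in WT Ly6Chi, at 811, 1202 and 1258 CPM in replicates 1 to 3. In the Ly6Clo groups the order differed, with replicate 3 the lowest. There the sums were 1607, 1912 and 1174 CPM in replicates 1 to 3 of WT and 1831, 1580.0 and 1128 in those of KO.

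**Figure D4:**
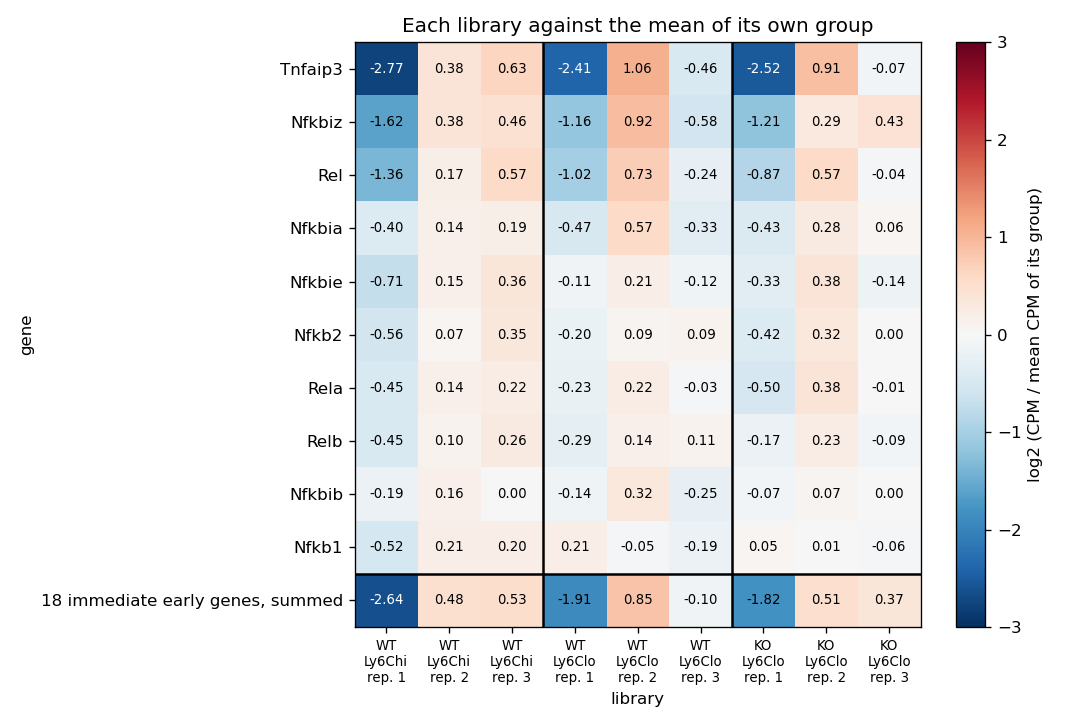
Log2 ratio of each library's CPM to the mean of its own group, for the 10 members (rows) and for the sum of 18 immediate early genes (bottom row), by library (columns). Replicate 1 is low in Tnfaip3 (-2.77, -2.41 and -2.52 in the 3 groups), while Nfkb1 is near 0 in the Ly6Clo libraries.

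Markers of some other spleen cells differed by replicate number as well. The 6 NK cell markers summed to 13.1 to 46.3 CPM in WT Ly6Chi, 44.7 to 191 in WT Ly6Clo and 8.61 to 254 in KO Ly6Clo, with Prf1 and Eomes at 0 in at least 1 KO library. In the Ly6Clo groups their sum was lowest in replicate 1 and highest in replicate 2, as was Tnfaip3. The 6 erythroid markers did likewise, at 133 to 226 CPM in WT Ly6Chi, 404 to 3344 in WT Ly6Clo and 1.23 to 7545 in KO Ly6Clo, with Alas2 at 0 in at least 1 KO library. The 7 T cell markers, with the same order in the Ly6Clo groups, summed to 84.7 to 156 CPM in WT Ly6Chi, 52.8 to 177 in WT Ly6Clo and 30 to 150.0 in KO Ly6Clo. Other lists followed that order only in part or not at all. The sum of red pulp macrophage markers was lowest in replicate 3 of both Ly6Clo groups and in replicate 2 of WT Ly6Chi. That of B cell markers was lowest in replicate 3 of WT Ly6Clo, but in replicate 1 of KO Ly6Clo and of WT Ly6Chi. That of conventional dendritic cells was lowest in replicate 3 of KO Ly6Clo, but in replicate 1 of both WT groups.

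Other marker lists differed between groups in their sums or in some of their genes, and lymphocytes use NF-kappaB too. The sums of the B cell list overlapped among the 3 groups. The 7 B cell markers summed to 405 to 612 CPM in WT Ly6Chi, 491 to 712 in WT Ly6Clo and 141 to 555 in KO Ly6Clo, with Pax5 at 0 in at least 1 WT Ly6Chi library. Most of that sum was Ighm (466 ± 90.7 CPM in WT Ly6Chi and 502 ± 77.4 in WT Ly6Clo), while all 7 B cell markers had a positive log2 fold change between the WT subsets (median 1.44, 0 called by edgeR, 3 at an unadjusted p under 0.05, 1 called by DESeq2). Cd79b, for example, was at 18.1, 31.8 and 21.7 CPM in WT Ly6Chi and 41.1, 61.4 and 39.8 among WT Ly6Clo libraries. The 10 neutrophil markers summed to 582 to 1191 CPM in WT Ly6Chi, 362 to 465 in WT Ly6Clo and 172 to 363 in KO Ly6Clo. Of the 10, 5 were at 0 in at least 1 WT Ly6Clo library and 4 in at least 1 KO library. Some fold changes between these groups therefore rest on values near 0. Csf3r made up most of the sum in Ly6Clo (421 ± 56.5 CPM in WT and 256 ± 80.3 in KO), and the list moved otherwise than its sum. Between KO and WT Ly6Clo, 8 of the 10 had a positive log2 fold change (median 2.35, 0 called by edgeR, 4 at an unadjusted p under 0.05, 1 called by DESeq2), with S100a9 at 0.25, 4.19 and 14.6 CPM in KO and 1.83, 0.43 and 2.31 in WT. Between the WT subsets edgeR called 5 of the 10 lower in Ly6Clo and 0 higher.

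Markers of red pulp macrophages (7 genes) summed to 369 to 457 CPM in WT Ly6Chi, 573 to 746 in WT Ly6Clo and 562 to 704 in KO Ly6Clo, with Cd163 at 0 in at least 1 library of each Ly6Clo group. Most of that sum was Adgre1, at 265 ± 27.1, 446 ± 53.1 and 456 ± 43.7 CPM in the same order. It was the 1 gene of the list called, higher in WT and KO Ly6Clo than in WT Ly6Chi (edgeR adjusted p = 0.035 and 0.026). The 5 platelet markers, all with counts in every library, summed to 29 to 40.7, 44.4 to 76.4 and 50.2 to 82.8 CPM in the same order. Most of that sum was Itgb3, at 26.9 ± 9.29, 43.6 ± 17.7 and 52.9 ± 23.9 CPM, and 0 of the 5 were called by edgeR. The 5 markers of plasmacytoid dendritic cells summed to 181 to 221, 110.0 to 138 and 88.7 to 126 CPM, again in that order. Of these plasmacytoid markers, Siglech, Ccr9 and Klk1 were at 0 in at least 1 library, and Bst2 was called lower in WT Ly6Clo than in WT Ly6Chi (edgeR adjusted p = 0.022). In these 3 lists the sums of the 6 Ly6Clo libraries and of the 3 Ly6Chi libraries did not overlap, as with Nfkb1. The 9 markers of conventional dendritic cells, all with counts in every library, summed to 179 to 396 CPM in WT Ly6Chi, 215 to 371 in WT Ly6Clo and 273 to 783 in KO Ly6Clo. The part of these cells and of the immediate early genes in the levels of the members and of the pathway genes below was not tested.

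Around the members, genes of the wider pathway were counted from lists. Of the receptors upstream (17 tested), Cd40, a costimulatory receptor that feeds both branches, was the 1 called in each comparison, always lower. It was at 47.6, 67.3 and 58.1 CPM in WT Ly6Chi, 27.4, 21.3 and 27.4 among WT Ly6Clo libraries and 7.0, 8.91 and 6.32 among KO Ly6Clo libraries, and the 3 groups did not overlap. It fell between WT Ly6Chi and WT Ly6Clo (log2 fold change -1.19 with an SE of 0.22 and an edgeR adjusted p of 0.024) and fell further in KO Ly6Clo (log2 fold change -1.77 with an SE of 0.23 and an edgeR adjusted p of 0.039). The edgeR call between KO and WT Ly6Clo was lost whichever library was left out (adjusted p from 0.058 to 0.17), and with the replicate block (0.084). That between the WT subsets was lost without WT Ly6Chi replicate 2 or 3 or any 1 WT Ly6Clo library (edgeR adjusted p from 0.086 to 0.11). With the replicate block, Nod1, a sensor of bacterial cell wall, was also called higher in WT Ly6Clo than in WT Ly6Chi (edgeR adjusted p = 0.021, against 0.15 without it), a gene named after its values were seen, and this blocked call held without WT Ly6Chi replicate 3 (0.021). The median log2 fold change of the list was 0.23 between the WT subsets and -0.05 between KO and WT Ly6Clo.

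Of the 10 genes listed for the IKK complex, the kinases around it and their partner proteins, 1 was lower in WT Ly6Clo than in WT Ly6Chi and 0 were higher. This was Ikbke, which encodes an IKK-related kinase of interferon induction, at 93, 86.2 and 91.9 CPM in WT Ly6Chi, 18.4, 14.8 and 20.9 among WT Ly6Clo libraries and 41.3, 34.7 and 23.2 among KO Ly6Clo libraries (log2 fold change -2.33 with an SE of 0.24 and an edgeR adjusted p of 0.0022). No Ly6Clo library reached the Ly6Chi level, and the call held in all 17 alternatives. KO Ly6Clo was lower than WT Ly6Chi as well (log2 fold change -1.45 with an SE of 0.24 and an edgeR adjusted p of 0.011). All 3 KO libraries lay above all 3 WT Ly6Clo libraries, but that difference was not called (log2 fold change 0.88 with an SE of 0.23 and an edgeR adjusted p of 0.46). The kinases of the main complex were not called in the comparison of KO with WT Ly6Clo, where Ikbkb was at 767 ± 45.9 against 885 ± 46.2 CPM and Map3k14, the kinase of the non-canonical branch, at 286 ± 109 against 304 ± 119. With the replicate block, Map3k14 was also called higher in WT Ly6Clo than in WT Ly6Chi (log2 fold change 1.24, edgeR adjusted p = 0.0095, against 0.22 without it), also without WT Ly6Chi replicate 3 (0.022).

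Of the 21 adaptors and ubiquitin ligases, 0 were called between the WT subsets and 0 between KO and WT Ly6Clo, with 6 and 2 at an unadjusted edgeR p under 0.05. DESeq2 called 2 between the WT subsets (Traf1 and Tank) and 0 between KO and WT Ly6Clo, and limma-voom 1 (Traf1) and 0. With the replicate block edgeR called 2 between the WT subsets, Traf1 (adjusted p = 0.046) and Traf3 (0.043), both higher in Ly6Clo and both chosen for naming after their values were seen, as was Tank. Without WT Ly6Chi replicate 3 both blocked calls were lost (0.054 and 0.061 by edgeR). Traf1, a signalling adaptor that is itself induced by NF-kappaB, was at 9.07, 40.4 and 37.5 CPM in WT Ly6Chi, 115, 159.9 and 91.3 among WT Ly6Clo libraries and 155, 182 and 136 among KO Ly6Clo libraries. Every Ly6Clo library lay above every Ly6Chi library, and the gene passed in KO Ly6Clo against WT Ly6Chi (log2 fold change 2.44 with an SE of 0.49 and an edgeR adjusted p of 0.027) and just missed between the WT subsets (log2 fold change 2.07 with an SE of 0.49 and an edgeR adjusted p of 0.055). By edgeR the former call was lost without WT Ly6Chi replicate 2 or 3 or KO replicate 2 or 3 (adjusted p from 0.061 to 0.078). Myd88, the adaptor of Toll-like receptors, was at 278 ± 21.9, 245 ± 22.6 and 239 ± 43.7 CPM in WT Ly6Chi, WT Ly6Clo and KO Ly6Clo, and Rbck1, of the linear ubiquitin ligase, at 266 ± 33.3, 309 ± 39.5 and 310.4 ± 61.2.

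The 15 other IkappaB proteins and negative regulators held 0 genes called by edgeR in any of the 3 comparisons, with 5 at an unadjusted p under 0.05 between the WT subsets, 0 between KO and WT Ly6Clo and 3 between KO Ly6Clo and WT Ly6Chi. DESeq2 called 1, 0 and 1 and limma-voom 0, 0 and 0 in the same order. The gene DESeq2 called, named after its values were seen, was Otud7b, a deubiquitinase. The highest in mean TPM, Tnfaip8l2, a brake on innate signalling, was at 249 ± 64.5, 214 ± 73.5 and 207 ± 119.8 CPM in WT Ly6Chi, WT Ly6Clo and KO Ly6Clo. Otulin, which removes linear ubiquitin chains, was at 104 ± 9.18, 122 ± 39 and 96.4 ± 2.29.

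Among the known targets of the pathway (24 of 26 genes tested), 3 were higher in WT Ly6Clo than in WT Ly6Chi and 0 lower, and the list's median log2 fold change was 0.71. Bcl2a1d, which encodes a survival protein of the BCL2 family, was at 5.88, 21.6 and 23.5 CPM in WT Ly6Chi, 138, 135 and 147 among WT Ly6Clo libraries and 127, 104 and 110.2 among KO Ly6Clo libraries (log2 fold change 3.05 with an SE of 0.44 and an edgeR adjusted p of 0.0088). Bcl2a1b, a near-identical copy whose reads can be shared with it, was at 1.57, 5.8 and 6.78 CPM in WT Ly6Chi, 33.4, 38.8 and 40.9 among WT Ly6Clo libraries and 40.1, 28 and 32.4 among KO Ly6Clo libraries (log2 fold change 3.0 with an SE of 0.48 and an edgeR adjusted p of 0.013). In both the 6 Ly6Clo libraries lay above the 3 Ly6Chi libraries, and both were also called in KO Ly6Clo against WT Ly6Chi. The call of Bcl2a1b between the WT subsets was lost without WT Ly6Chi replicate 2 (edgeR adjusted p = 0.051). Tnf, the cytokine that is both a trigger and a target, was at 4.35, 4.67 and 4.17 CPM in WT Ly6Chi, 34.4, 74 and 11.8 among WT Ly6Clo libraries and 25.5, 10.5 and 16.1 among KO Ly6Clo libraries (log2 fold change 3.19 with an SE of 0.62 and an edgeR adjusted p of 0.027). WT Ly6Clo libraries of Tnf differed more among themselves than the Ly6Chi libraries did, and the edgeR call was lost without any 1 Ly6Chi library or WT Ly6Clo replicate 1 or 2 (adjusted p from 0.072 to 0.11). Limma-voom called 2 of the targets, Bcl2a1d and Bcl2a1b, and DESeq2 5. Cxcl10 and Ccl2, both named after their values were seen, lay lower in WT Ly6Clo without being called by edgeR. The chemokine gene Cxcl10 was at 11.1, 21.3 and 18.9 CPM in WT Ly6Chi and 0.37, 0.51 and 2.48 among WT Ly6Clo libraries, with no overlap (log2 fold change -3.94 with an SE of 1.48 and an edgeR adjusted p of 0.20, by DESeq2 0.025). Ccl2, another chemokine gene, was at 5.78, 13.5 and 10.0 CPM in WT Ly6Chi and 0, 0.64 and 1.64 among WT Ly6Clo libraries (edgeR adjusted p = 0.27).

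Between KO and WT Ly6Clo, edgeR, DESeq2 and limma-voom each called 0 of the targets, and 0 had an unadjusted edgeR p under 0.05 (median log2 fold change -0.10). Il1b, the most abundant of them, was at 39, 583 and 780.4 CPM in WT Ly6Chi, 471, 2739 and 1005 among WT Ly6Clo libraries and 482, 2670.4 and 2267 among KO Ly6Clo libraries. Cd83, a surface protein of activated antigen-presenting cells, was at 6.47, 160.3 and 185 CPM in WT Ly6Chi, 379.7, 2724 and 739.8 among WT Ly6Clo libraries and 35.9, 764 and 536 among KO Ly6Clo libraries. Both were lowest in replicate 1 of every group, as Tnfaip3 was. Between the WT subsets, Cd83 was called higher in Ly6Clo with the replicate block (edgeR adjusted p = 0.029, against 0.22 without it) and by DESeq2 (0.028), and the blocked call was at 0.048 without WT Ly6Chi replicate 3. The immediate early list held 0 genes called by edgeR, DESeq2 or limma-voom in any comparison, and 0 at an unadjusted edgeR p under 0.05, with Junb at 2738 ± 1890.0, 2533 ± 2261 and 1628 ± 918 CPM and Nr4a1 at 1911 ± 1379, 6376 ± 4398 and 4497 ± 2499 in WT Ly6Chi, WT Ly6Clo and KO Ly6Clo. With the replicate block, edgeR called 2 of them higher in WT Ly6Clo than in WT Ly6Chi, Nr4a1 (adjusted p = 0.028) and Dusp2 (0.046), and 1 lower, Fosb (0.028). Without WT Ly6Chi replicate 3 the blocked call of Nr4a1 held (0.029), and those of Dusp2 (0.052) and Fosb (0.099) were lost. Dusp2 and Fosb were named after their values were seen.

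**Figure D5:**
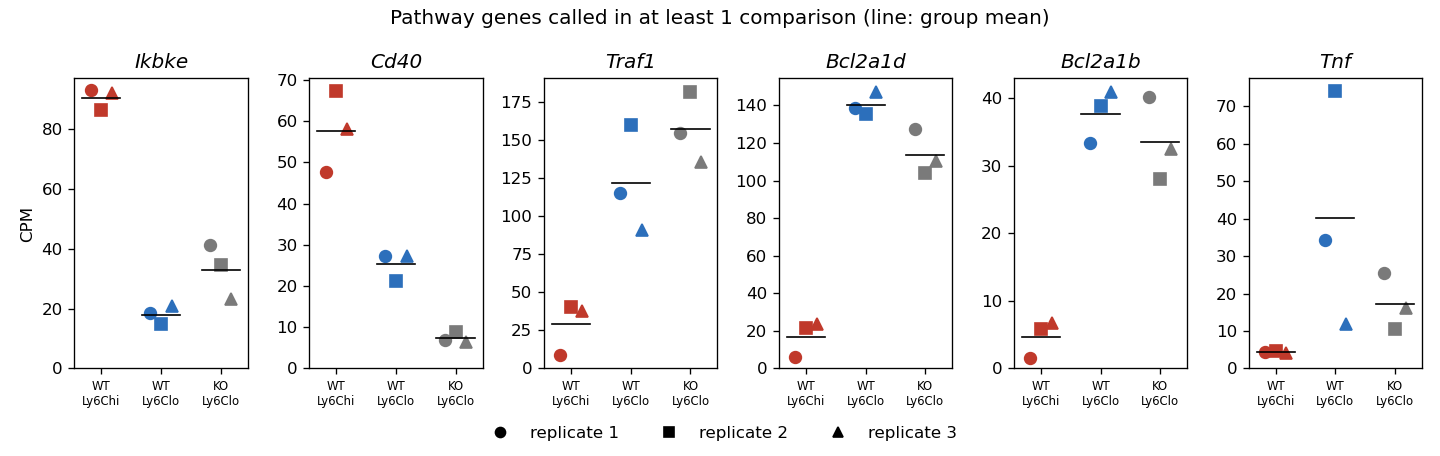
CPM of the 6 pathway genes called in at least 1 comparison, in each library of the 3 groups (shapes give the replicate number, lines the group mean, and each axis starts at 0). Ikbke and Cd40 are highest in WT Ly6Chi, at 90.4 and 57.7 CPM on average, and the other 4 are lowest there.

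Of 9054 genes with a mean of at least 5 CPM, those most like 5 of the members across the 9 libraries were found by the Pearson correlation of log2(CPM + 1). For Nfkb1 they were S1pr5 (r = 0.989), Eno3 (0.988) and Adgre4 (0.986), which are, respectively, a sphingosine 1-phosphate receptor, a muscle-type enolase and an adhesion receptor. S1pr5, for example, was at 141 ± 71.1, 1057 ± 149 and 816 ± 36.5 CPM in WT Ly6Chi, WT Ly6Clo and KO Ly6Clo, so it separated the subsets as Nfkb1 did. For Tnfaip3 they were Ccrl2 (r = 0.994), Nr4a2 (0.993) and Ppp1r15a (0.989), a chemokine receptor-like protein, an immediate early nuclear receptor and a stress-induced phosphatase subunit. Ppp1r15a was at 21.3, 367 and 392.4 CPM in WT Ly6Chi, 62.9, 1218 and 421 among WT Ly6Clo and 41.1, 687 and 560.3 among KO Ly6Clo libraries, lowest in replicate 1 of each group. For Nfkbia they were C5ar1 (r = 0.983), Rab20 (0.977) and Aar2 (0.968), the first being the receptor for complement C5a. For Nfkbiz they were Copg1 (r = 0.983), Xab2 (0.983) and Yrdc (0.977), and for Rela Phrf1 (r = 0.982), Lcp2 (0.98) and Sirpa (0.979). The 9 points share groups, replicate numbers and depth, so these are descriptions and carry no p.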

How the data were processed

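Libraries were made with the SMARTer Ultra Low kit on 10 ng of RNA from about 40000 to 50000 sorted cells, per the labels' protocols. Each of the 9 tables holds 1 row for each of 55487 gene IDs. The counts are whole reads per gene, deposited by the authors without normalization, per the file headers. The TPM column was deposited by the authors beside them and equals the value recomputed from counts and exon lengths (largest difference 6e-11). The submitters' processing notes list, with no roles, the aligner STAR (2.5.1a), Salmon (0.8.2), featureCounts (1.4.6-p5) of Subread, bcl2fastq, limma and edgeR, and the build GRCm38. The use of strand in counting is not given, so reads of overlapping antisense genes cannot be told apart. Symbols came from GENCODE M21 of the same build for 55141 IDs.

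Tests used edgeR 4.0.16 (R 4.3.3) on the deposited counts. Of the genes, 18341 passed filterByExpr at its minimum count of 10. Sizes were scaled by TMM, the 9 libraries were fitted together with a term for each group, and contrasts were tested by quasi-likelihood with Benjamini-Hochberg adjustment over all genes. A gene is called at an adjusted p under 0.05. The SE of a log2 fold change comes from the F statistic, and 95% intervals use the t distribution of the fit. The script was tested on simulated data. The members and lists were chosen with earlier results of these data known. All 10 members are named. Of each pathway list, the called genes of smallest adjusted p (up to 4) are named, or the 2 of highest TPM where none was called.

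The labels do not pair the libraries, and the data pair the replicate numbers only in part. Deviations from the group mean were correlated over 9653 genes. Same-numbered libraries gave 0.175 to 0.573 (WT and KO Ly6Clo) and 0.136 to 0.444 (WT Ly6Chi and WT Ly6Clo). Differently numbered libraries reached 0.195 and 0.204 in the same order, so the ranges overlap. The blocked calls rest on this partial pairing. Between WT Ly6Chi and KO Ly6Clo, same-numbered libraries ran from -0.0159 to 0.371 and the others up to 0.333, so pairing is not shown there. The block was fitted to that comparison too, as an alternative only. The alternatives were RLE scaling, no filter, a stricter filter (1 CPM or more in 3 libraries), DESeq2 1.42.0, limma-voom (3.58.1), the 2 groups alone, the replicate block, the 2 runs of consecutive library numbers as a term, and each library left out. Leaving out all 3 libraries of a number, and the block without WT Ly6Chi replicate 3, were added after seeing the data. The depth gives every member at least 1966 counts in a library. PCR copies cannot be told from molecules here. The value of 1 marker gene is not reported here.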

Additional observations from a re-analysis of the deposited data

How the results depend on the processing

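The count of called genes depended on the fit. Between KO and WT Ly6Clo it was 13 by edgeR as reported, 54 with no filter, 27 with a filter of 1 CPM, 358 by DESeq2, 0 in the 2 groups alone (limma-voom called 16) and 2 to 21 with 1 library left out. Members called remained 0 there under all 17 planned and 4 added alternatives. Between the WT subsets DESeq2 called 2032 against 643, and leaving out 1 library gave 239 to 847. Between KO Ly6Clo and WT Ly6Chi DESeq2 called 1986 against 829, and leaving out 1 library gave 379 to 818. Without all libraries numbered 1, 2 or 3, an alternative chosen after seeing the data, the counts were 2, 0 and 0 for KO against WT Ly6Clo, 457, 3 and 0 between the WT subsets and 698, 98 and 56 for KO Ly6Clo against WT Ly6Chi. Each such fit has 3 libraries fewer. The block without WT Ly6Chi replicate 3, also added after seeing the data, called 0, 442 and 572 genes.

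Members called between the WT subsets were 2 with the replicate block, 0 with the term for library number runs, 0 to 1 with 1 library left out and 0 without the libraries numbered 2 or 3. Between KO Ly6Clo and WT Ly6Chi the count fell from 1 to 0 with RLE scaling, no filter, the 2 groups alone, the replicate block, the run term, any 1 library left out and without the libraries numbered 2 or 3. The replicate block called 13, 949 and 977 genes in the 3 comparisons, and among members changed the calls of Nfkbiz (WT subsets) and Nfkb1 (KO Ly6Clo against WT Ly6Chi).

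Of 630 member fold changes under alternatives, 569 kept direction and side of the threshold, 27 lost a call, 3 gained one and 31 turned sign; none of the last had been called. Leaving out 1 library moved the log2 fold change between KO and WT Ly6Clo over -0.83 to 0.20 for Rel, -0.39 to 0.05 for Rela, -0.22 to 0.02 for Relb, -0.18 to 0.15 for Nfkbib, -1.16 to 0.08 for Nfkbiz, -0.88 to -0.25 for Nfkbia and -1.13 to 0.88 for Tnfaip3. Between the WT subsets it ran over -0.04 to 0.29 for Nfkbib, -0.45 to 1.20 for Tnfaip3, 1.04 to 2.27 for Nfkbiz, 0.46 to 1.46 for Rel, 0.08 to 0.51 for Nfkb2 and 0.18 to 0.66 for Nfkbie, and between KO Ly6Clo and WT Ly6Chi over -0.22 to 0.22 for Nfkb2, -0.05 to 0.30 for Nfkbia and -0.43 to 0.91 for Tnfaip3. In that last comparison Nfkb2 was 0.04 with no filter, 0.04 by limma-voom, 0.01 with the replicate block, 0.13 with the run term, 0.19 with the block without WT Ly6Chi replicate 3 and 0.21 without the libraries numbered 3. Without those numbered 2, Tnfaip3 was 0.05, -0.21 and -0.17 in KO against WT Ly6Clo, the WT subsets and KO Ly6Clo against WT Ly6Chi, and Nfkbib 0.10 in the first. Without those numbered 3, Relb was 0.01 in the first. The cause was not tested. With 3 libraries a group, Tnfaip3, Nfkbiz and Rel had the widest intervals in the fit without the block.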
